A study of Gallus gallus with 6 samples.

Results

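The genes described here are the extracellular matrix proteins and the cell-surface receptors that bind them, in the ileum of Taiping chickens. They are the rows of the deposited table that its pathway annotation places under ECM-receptor interaction and that held 10 or more counts in at least 3 of the 6 libraries. Of 68 annotated rows 67 met this, among 17623 rows in all: 11 collagens, 8 laminins, 18 other ligands, with vitronectin (VTN) among them, and 30 receptors. The row left out was LAMB4, a laminin beta chain, with 0 to 6 counts in every library. Just inside the minimum were THBS4, with 7 to 52 counts, SV2B, with 9 to 21, and GP1BA-like, with 13 to 21. Tenascin-X (TNXB) takes up 3 of the rows, all loci assembled from reads, so the 67 rows stand for 65 gene names.

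Each group had 3 libraries of bulk ileum RNA from birds aged 2 months. Controls ate a corn and soybean ration. The FOS group ate it with fructooligosaccharide, a short fructose polymer fermented by gut microbes, at 1 mL per litre of water. Per-library values are given in the order of replicates 1, 2 and 3, and FOS 1 means replicate 1 of that group. No label states that each library is from its own bird, and p-values here reflect library-to-library spread. In bulk tissue, fewer cells of a type and less RNA per cell cannot be told apart. Total counts ranged from 14668289 to 18106651 per library, so that 1 CPM (counts scaled to a common library size, with TMM factors) stood for 14.4 to 18.8 counts. The labels name all birds as male, but HINTW, a gene of the W chromosome that males lack, stood at 111 to 158 CPM in replicates 1 and 3 of either group. Replicate 2 held 0.173 CPM of it in control and 0.0697 CPM in FOS. FABP6, a marker of ileal enterocytes, stood at 1079 CPM or more in every library.

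The extracellular matrix of the gut holds a basement membrane under the epithelium and around vessels and muscle, built on networks of laminin and type IV collagen, and a fibrillar stroma of type I and type VI collagen and fibronectin. Cells bind these proteins through integrins, each a pair of an alpha and a beta chain, and through dystroglycan and syndecans. Vitronectin is an adhesive glycoprotein of plasma and matrix that is made mainly by the liver in mammals, and it is bound by integrins with the alpha V chain.

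The comparison asks which of these genes differed with FOS feeding. VTN had the smallest p of the 67 and a 2.23-fold higher mean in FOS, while the most abundant matrix genes, among them fibronectin (FN1) and the type VI collagen chains, had lower means in FOS. With edgeR's quasi-likelihood test, adjusted over the 13807 genes tested, 0 of the 67 members passed the threshold of 0.05, where 0.0217% of all genes did. DESeq2 called 1 member, VTN, where it called 1.08% of all genes. At an unadjusted edgeR p under 0.05 there were 12 members (17.9%, against 9.42% of all genes), 8 members lower in FOS (11.9%, against 4.27% of all genes) and 4 higher (5.97%, against 5.14% of all genes). The 8 lower members were COL6A1, COL6A2, LAMA1, LAMA5, FN1, TNC, ITGA8 and ITGA9, and the 4 higher ones were VTN, TNN, ITGA3 and ITGB4. These counts hung on single libraries. Without FOS 1 there were 3 lower (4.48%, against 4.31% of all genes) and 8 higher (11.9%, against 5.52%). Without FOS 3 there were 14 lower (20.9%, against 5.04%) and 3 higher (4.48%, against 5.71%). The groups did not overlap in 14 members (20.9%, against 16.4% of all genes). VTN, FN1 and ITGA8 were the 3 members that kept an unadjusted edgeR p under 0.05 with any 1 of the 6 libraries left out.

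VTN (ENSGALG00000003589) stood at 29.7, 29.1 and 20.7 CPM in the controls, against 60.2, 59 and 57.7 CPM under FOS. All 3 FOS libraries lay well above all control libraries, and they lay closer together than the controls, of which control 3 was the lowest. At 892, 846 and 1028 VTN counts in FOS, counting error alone would spread the values more than this. The closeness is therefore not read as a trait of the FOS libraries. The log2 fold change was 1.15 (SE 0.16), a fold of 2.23, with an unadjusted edgeR p of 0.000122 and an edgeR adjusted p of 0.263. The DESeq2 adjusted p was 8.63e-07, and 9.76e-06 with the replicate number as a block. The log2 fold change was 1.00 without control 3 and 1.24 without control 1, the ends of the range over the 6 ways to leave out 1 library. In the 4 libraries with W-linked transcripts it was 1.22 (edgeR adjusted p = 0.484).

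Per length of the gene, VTN stood at 15.1 ± 2.79 FPKM in the controls, against 32.1 ± 0.229 FPKM under FOS (SD, n = 3; FPKM is fragments scaled to gene length and library size, used here without TMM factors). By mean FPKM it ranked 8 of the 18 other ligands in the controls, against 4 under FOS. The ratio of VTN to FN1 in FPKM was 0.169, 0.178 and 0.125 in the controls, against 0.705, 0.553 and 0.433 under FOS, with no overlap between the groups. This ratio was formed after both genes' values were seen. In FPKM VTN separated upward and FN1 downward, so the ratio had to separate and adds no result of its own.

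Since vitronectin is a liver product in mammals, genes for other plasma proteins of the liver were read beside it. Of 14 such genes listed 13 were found, and FGA, AHSG, AMBP, APOH and PLG had under 10 counts in every library. Albumin (ALB) stood at 0.14 to 0.48 FPKM over the 6 libraries, where VTN stood at 12 FPKM or more. Prothrombin (F2), at 71.1 to 137 CPM, and transferrin (TF), at 45.3 to 92.3 CPM, made up most of the list's sum, which was 202, 228 and 157 CPM in the controls, against 178, 189 and 161 CPM under FOS. The part of liver RNA in the VTN result was not tested beyond these levels. In the list 0 of 7 tested genes passed with edgeR or DESeq2, its median log2 fold change was 0.06, and TF and ITIH2, a hyaluronan-binding plasma protein, had unadjusted p values of 0.0435 and 0.0187 with lower means in FOS. In the RefSeq annotation of GRCg7b, VTN overlaps KIF12, a kinesin motor, and SARM1. KIF12 stood at 1.92, 4.74 and 2.13 CPM in the controls, against 2.03, 2.37 and 7.13 CPM under FOS, so its groups overlapped. SARM1 was not matched in the table. Deposited VTN counts were not all whole, as for COL4A1 and COL4A2 below, so that some reads may be split with other genes. The counts lay within 0.15 of a whole number in every library, which does not give the number of reads split. No source used here says whether counting used strand, and reads from the overlaps cannot be told apart.

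**Figure D1:**
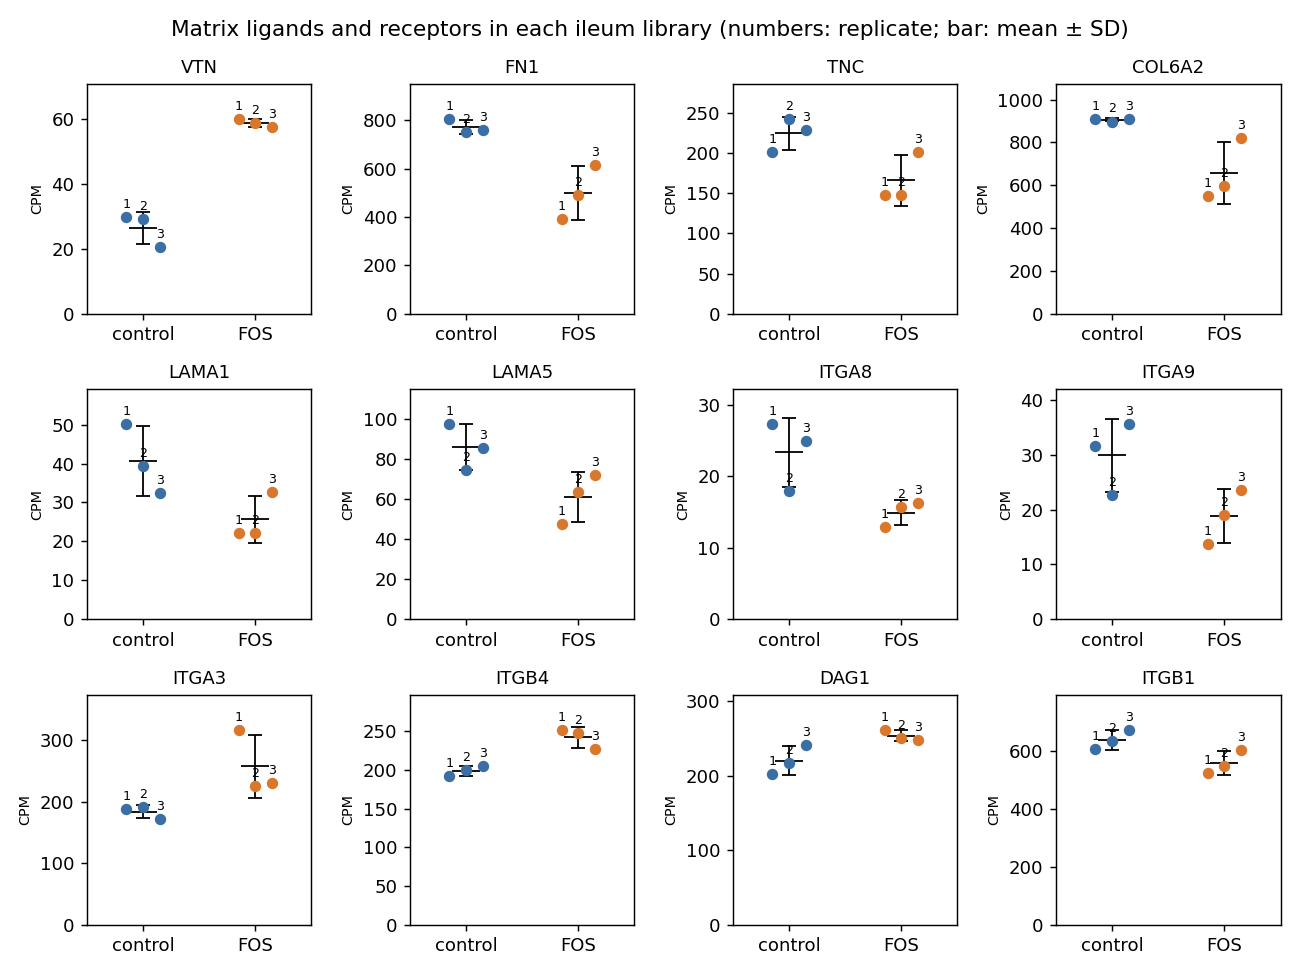
Normalised read counts (y axis, CPM, from 0) of 12 members in the 3 control libraries (blue) and 3 FOS libraries (orange). Digits are replicate numbers and bars are mean ± SD (n = 3). VTN lies at 57.7 CPM or more in FOS and at 29.7 CPM or less in control, while FN1 lies at 613 CPM or less in FOS and at 751 CPM or more in control.

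Among the 18 other ligands, 9 had a positive and 9 a negative log2 fold change (median -0.14, from -0.85 to 1.15), and the median was 0.16 without control 3. FN1 (ENSGALG00000003578), which links cells to collagen through integrins, was the most abundant of them per length. FN1 stood at 806, 751 and 760 CPM in the controls, against 393, 490 and 613 CPM under FOS. The groups did not overlap, and FOS 1 was the lowest library. Its log2 fold change was -0.63 (SE 0.17; unadjusted p = 0.00788, edgeR adjusted p = 0.443, DESeq2 adjusted p = 0.0539), between -0.80 and -0.48 with 1 library left out and -0.64 in the 4 libraries with W-linked transcripts.

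TNC, tenascin-C, a matrix protein of remodelling stroma, stood at 202, 243 and 229 CPM in the controls, against 148, 148 and 202 CPM under FOS. The groups did not overlap, but FOS 3 and control 1 were equal to 3 digits. The log2 fold change was -0.44 (SE 0.16, unadjusted p = 0.0252). COMP, a thrombospondin family protein, stood at 57.9, 58.9 and 56.4 CPM in the controls, against 30.6, 54.8 and 41.3 CPM under FOS, without overlap. Its log2 fold change was -0.45 (SE 0.20, unadjusted p = 0.0568), or -0.26 without FOS 1. Without FOS 2 it was -0.67 in edgeR (unadjusted p = 0.00472), and DESeq2 then called COMP lower (DESeq2 adjusted p = 0.0498). HSPG2, which encodes the basement membrane proteoglycan perlecan, stood at 641, 624 and 692 CPM in the controls, against 370, 503 and 698 CPM under FOS, so that its lowest and its highest library were both FOS libraries. Its log2 fold change was -0.32 (SE 0.22), and it was -0.12 without FOS 1 and -0.57 without FOS 3.

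The tenascins did not share a direction. TNN, tenascin-N, was scarce, at 1.44, 1.73 and 1.28 CPM in the controls, against 3.11, 1.53 and 4.10 CPM under FOS, where FOS 2 lay within the control range (log2 fold change 0.97, SE 0.41, unadjusted p = 0.0488). TNR, tenascin-R, known from the nervous system, stood at 0.627 to 1.87 CPM with a log2 fold change of -0.45 (SE 0.43). The 3 assembled rows of tenascin-X, which belong to the same gene and are no replicates of each other, had log2 fold changes of 0.72, 0.82 and 0.35 (with SEs of 0.35, 0.62 and 0.37). All 3 rows were highest in FOS 3, and FOS 1 lay near or below the controls. Without FOS 1 their log2 fold changes were 1.03, 1.25 and 0.69, and DESeq2 then called the row MSTRG.4748 (DESeq2 adjusted p = 0.00723).

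CHAD, chondroadherin, a leucine-rich matrix protein of cartilage, stood at 14.4, 17.7 and 9.59 CPM in the controls, against 4.79, 23.9 and 27.8 CPM under FOS, with both extremes in FOS libraries. The thrombospondins THBS1, THBS2 and THBS4, matrix glycoproteins, had log2 fold changes of -0.31, -0.30 and -0.85 (with SEs of 0.20, 0.24 and 0.75). THBS1 was lowest in FOS 1, at 82.6 CPM, and the other 5 libraries stood at 137 to 159 CPM. RELN, reelin, had a log2 fold change of 0.02 (SE 0.29). SPP1, osteopontin, stood at 6.21 CPM in FOS 1 and at 1.07 to 1.92 CPM in the other 5 libraries, and its log2 fold change of 0.83 (SE 0.69) became -0.40 without FOS 1. VWF, the von Willebrand factor of endothelium, stood at 265, 233 and 259 CPM in the controls, against 154, 208 and 245 CPM under FOS (log2 fold change -0.32, SE 0.18), and AGRN, agrin of basement membranes, had a log2 fold change of 0.12 (SE 0.13).

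Among the 11 collagens the 7 abundant chains had lower means in FOS, and the 4 chains below 20 CPM in every library had higher means (class median -0.27, and -0.15 without FOS 1). COL6A2 (ENSGALG00000039216), a chain of the beaded filaments of type VI collagen, was the most abundant per length at 223 ± 6.44 FPKM in the controls, against 155 ± 38.1 FPKM under FOS (SD, n = 3). In CPM it stood at 911, 898 and 910 in the controls, against 552, 598 and 822 under FOS. The controls lay close together, while FOS 3 lay far above the other FOS libraries and still below the controls. The log2 fold change was -0.46 (SE 0.17, unadjusted p = 0.0285, edgeR adjusted p = 0.496).

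Its partner chains COL6A1 and COL6A3 had log2 fold changes of -0.41 (SE 0.18, unadjusted p = 0.0488) and -0.48 (SE 0.22, unadjusted p = 0.0669). COL6A1 stood at 456, 484 and 469 CPM in the controls, against 300, 306 and 450 CPM under FOS. COL6A3 stood at 458, 505 and 468 CPM in the controls, against 262, 296 and 472 CPM under FOS, where FOS 3 lay within the control range. All 3 chains were low in FOS 1 and FOS 2 and near the controls in FOS 3. Without FOS 3 DESeq2 called all 3 chains lower (DESeq2 adjusted p = 2.38e-05 to 7.2e-05), beside COL4A1, LAMA1, FN1 and TNC, and VTN higher, 8 members in all. It then called 248 of the 13937 genes tested in that setting. The ratio of COL6A1 to COL6A2 in FPKM stayed between 0.681 and 0.745 over the 6 libraries, and that of COL6A3 to COL6A2 between 0.207 and 0.248, with no separation of the groups.

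Type IV collagen is the sheet-forming collagen of basement membranes. Its abundant chains COL4A1 and COL4A2 were lowest in FOS 1 and next lowest in FOS 2, and FOS 3 reached the control range. The scarce chain COL4A4 was highest in FOS 1, at 3.78 CPM. COL4A1 stood at 940, 908 and 1005 CPM in the controls, against 511, 698 and 935 CPM under FOS (log2 fold change -0.41, SE 0.22, or -0.21 without FOS 1 and -0.64 without FOS 3). COL4A2 had a log2 fold change of -0.38 (SE 0.21). COL4A1 and COL4A2 neighbour each other in GRCg7b, as do COL6A1 and COL6A2. Counts of COL4A1 and COL4A2 were not whole, so that some reads may be split between them. The ratio of COL4A1 to COL4A2 in FPKM was 1.62 ± 0.101 in the controls, against 1.58 ± 0.0505 under FOS (SD, n = 3).

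Type I collagen is the main fibril of the stroma. COL1A1 stood at 490, 571 and 495 CPM in the controls, against 441, 478 and 543 CPM under FOS (log2 fold change -0.09, SE 0.13), with overlapping groups. COL1A2 stood at 476, 480 and 498 CPM in the controls, against 335, 406 and 467 CPM under FOS, without overlap (log2 fold change -0.27, SE 0.14, unadjusted p = 0.103). The cartilage-type chains COL2A1, COL9A1 and COL9A3 and the basement membrane chain COL4A4 were scarce, at 0.377 to 3.19 FPKM on average. Their log2 fold changes ran from 0.28 to 0.80 with unadjusted p from 0.167 to 0.437.

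Collagen and integrin genes that the pathway annotation leaves out gave a wider view. Of 23 such rows 20 were tested, 19 had a negative log2 fold change, where 48.9% of all genes did, and 0 passed with edgeR or DESeq2 (median -0.34, and -0.19 without FOS 1). At an unadjusted p under 0.05 there were 4 lower, COL12A1, COL17A1, COL23A1 and COL8A2, and 0 higher, against 4.27% lower and 5.14% higher over all genes. COL3A1, the other main fibril of gut stroma, stood at 3044, 3157 and 3070 CPM in the controls, against 2133, 2796 and 3418 CPM under FOS, again with both extremes in FOS libraries. COL17A1, a transmembrane collagen of epithelial anchoring sites, stood at 128, 107 and 137 CPM in the controls, against 38.6, 103 and 60.3 CPM under FOS (log2 fold change -0.88, SE 0.32, unadjusted p = 0.0282). This list was formed by gene name after the table had been opened.

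Among the 8 laminins, the cross-shaped trimers of basement membranes, 6 had a negative log2 fold change (median -0.16, and -0.05 without FOS 1). LAMA1, an alpha chain and the scarcest laminin here per length, stood at 50.1, 39.4 and 32.3 CPM in the controls, against 22.1, 22.2 and 32.6 CPM under FOS. FOS 3 reached the lowest control. The log2 fold change was -0.66 (SE 0.22, unadjusted p = 0.0185). LAMA5, the alpha chain of many mature basement membranes, stood at 97.3, 74.6 and 85.6 CPM in the controls, against 47.5, 63.4 and 72.1 CPM under FOS, without overlap (log2 fold change -0.49, SE 0.18, unadjusted p = 0.0259).

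LAMC1, the gamma chain shared by most laminins, was the most abundant per length and had a log2 fold change of -0.16 (SE 0.15). LAMB1, its usual beta partner, also had -0.16 (SE 0.13), and the ratio of LAMB1 to LAMC1 in FPKM was 0.551 ± 0.0442 in the controls, against 0.556 ± 0.0213 under FOS (SD, n = 3). LAMA3 and LAMB3, chains of the laminin that anchors epithelia, had log2 fold changes of -0.17 (SE 0.19) and 0.27 (SE 0.31). LAMB3 stood at 135, 229 and 96.6 CPM in the controls, against 167, 156 and 232 CPM under FOS, with overlapping groups and SDs of 68.1 CPM in control and 40.8 CPM in FOS (n = 3). LAMA4, of vessels and muscle, and LAMB2 had log2 fold changes of -0.10 (SE 0.21) and 0.07 (SE 0.22).

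**Figure D2:**
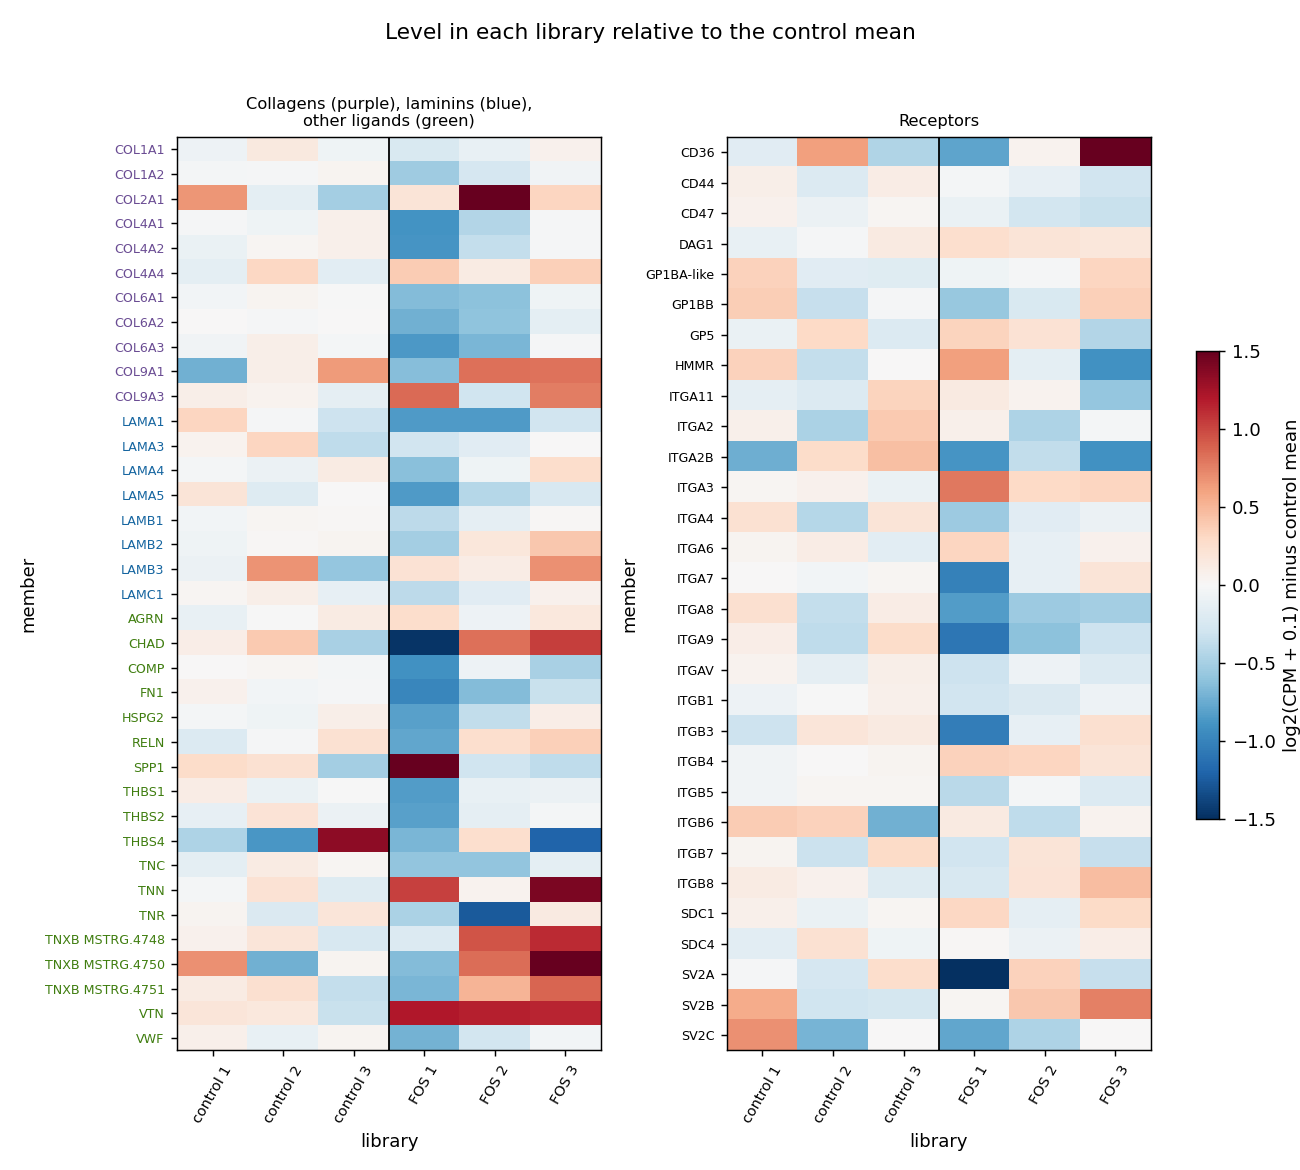
Level of each of the 67 members (rows) in each library (columns), as log2(CPM + 0.1) minus the mean of the 3 control libraries, with red above and blue below that mean. The column of FOS 1 is blue for most matrix genes, VTN is red in all 3 FOS libraries, and the rows of tenascin-X are red in FOS 2 and FOS 3.

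The 30 receptors had 11 positive and 19 negative log2 fold changes (median -0.14, from -0.85 to 0.59). The groups did not overlap in 3 receptors with higher means in FOS, ITGA3, ITGB4 and DAG1, which is 10% of the class, against 8.58% of all genes. They did not overlap in 3 with lower means, ITGA8, ITGB1 and CD47, against 7.84% of all genes. Both shares are near those of all genes.

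Of the laminin receptors, ITGA3, ITGB4 and DAG1 had higher means in FOS without overlap. They did not stand for the whole group. ITGA6 and ITGA7 overlapped, and ITGB1, a beta chain described below, had a lower mean without overlap. ITGA3, an alpha chain that binds epithelial laminins, stood at 188, 192 and 172 CPM in the controls, against 317, 226 and 230 CPM under FOS. FOS 1 was the highest, and the other FOS libraries also lay above all controls. The log2 fold change was 0.49 (SE 0.16, unadjusted p = 0.0158, edgeR adjusted p = 0.479) and 0.32 without FOS 1. ITGB4, the beta chain of hemidesmosomes, stood at 192, 200 and 205 CPM in the controls, against 252, 248 and 227 CPM under FOS, again without overlap (log2 fold change 0.28, SE 0.10, unadjusted p = 0.0258). Its row is a locus assembled from reads.

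ITGA6, the alpha partner of ITGB4, stood at 148, 155 and 129 CPM in the controls, against 179, 132 and 150 CPM under FOS, with overlap (log2 fold change 0.09, SE 0.14). DAG1, dystroglycan, a laminin and agrin receptor, stood at 203, 217 and 241 CPM in the controls, against 262, 251 and 248 CPM under FOS (log2 fold change 0.20, SE 0.11, unadjusted p = 0.101). ITGA7, the laminin-binding alpha chain of muscle, had a log2 fold change of -0.23 (SE 0.28) and 0.05 without FOS 1.

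Integrins that bind vitronectin and fibronectin through the RGD tripeptide gave no call with edgeR or DESeq2 on all libraries. ITGAV, the alpha chain of vitronectin receptors, stood at 123, 108 and 127 CPM in the controls, against 96.2, 113 and 103 CPM under FOS (log2 fold change -0.19, SE 0.11). Its beta partners ITGB5, ITGB3, ITGB6 and ITGB8 had log2 fold changes of -0.20, -0.23, -0.13 and 0.16 (with SEs of 0.12, 0.32, 0.30 and 0.19), and their groups overlapped. The ratio of ITGAV to ITGB5 in FPKM was 0.431 ± 0.0445 in the controls, against 0.406 ± 0.0198 under FOS (SD, n = 3). ITGA8, an RGD-binding alpha chain of smooth muscle and stroma, stood at 27.3, 18 and 24.9 CPM in the controls, against 12.9, 15.7 and 16.2 CPM under FOS, without overlap (log2 fold change -0.65, SE 0.19, unadjusted p = 0.0114, edgeR adjusted p = 0.475). DESeq2 called ITGA8 lower without control 2 (DESeq2 adjusted p = 0.025).

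ITGB1, the beta chain shared by most matrix-binding integrins, was the most abundant receptor per length, at 23.5% of the summed control FPKM of the class. ITGB1 stood at 605, 634 and 673 CPM in the controls, against 523, 548 and 602 CPM under FOS (log2 fold change -0.19, SE 0.12, unadjusted p = 0.144). The ratio of ITGA3 to ITGB1 in FPKM was 0.240, 0.236 and 0.196 in the controls, against 0.490, 0.328 and 0.298 under FOS. This ratio was chosen after both were seen. In FPKM ITGA3 separated upward and ITGB1 downward, so the ratio had to separate and adds no result of its own. ITGA9, which binds tenascin-C and is found on muscle and lymphatic endothelium, stood at 31.6, 22.6 and 35.6 CPM in the controls, against 13.8, 19.1 and 23.6 CPM under FOS, where FOS 3 lay just above control 2 (log2 fold change -0.67, SE 0.24, unadjusted p = 0.0276).

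The collagen-binding chains ITGA2 and ITGA11 had log2 fold changes of -0.17 (SE 0.26) and -0.12 (SE 0.24). The lymphocyte chains ITGA4 and ITGB7, which together form a gut-homing receptor, had -0.28 (SE 0.21) and -0.15 (SE 0.22). ITGA2B, GP1BB, GP5 and GP1BA-like, which in mammals mark platelets, stood at 0.73 to 3.85 CPM, levels of few counts, with log2 fold changes from -0.85 (SE 0.44) for ITGA2B to 0.08 (SE 0.37) for GP1BA-like.

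Of the receptors that are not integrins, CD47, a thrombospondin receptor known as a signal against phagocytosis, stood at 328, 297 and 320 CPM in the controls, against 293, 259 and 249 CPM under FOS (log2 fold change -0.24, SE 0.11, unadjusted p = 0.0729). The groups lay side by side without overlap, control 2 next to FOS 1. SDC4, a syndecan that works beside integrins in focal adhesions, was second in abundance per length and stood at 275, 360 and 293 CPM in the controls, against 311, 289 and 330 CPM under FOS, a log2 fold change of 0.00 (SE 0.14) whose sign changed with the scaling factors. CD36, a thrombospondin receptor and fatty acid transporter, spread from 38.5 CPM in FOS 1 to 209 CPM in FOS 3, with controls at 48.6 to 102 CPM (log2 fold change 0.59, SE 0.59). SDC1, CD44, HMMR and the SV2 vesicle proteins SV2A, SV2B and SV2C had log2 fold changes from -0.53 to 0.42 with unadjusted p from 0.269 to 0.911.

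**Figure D3:**
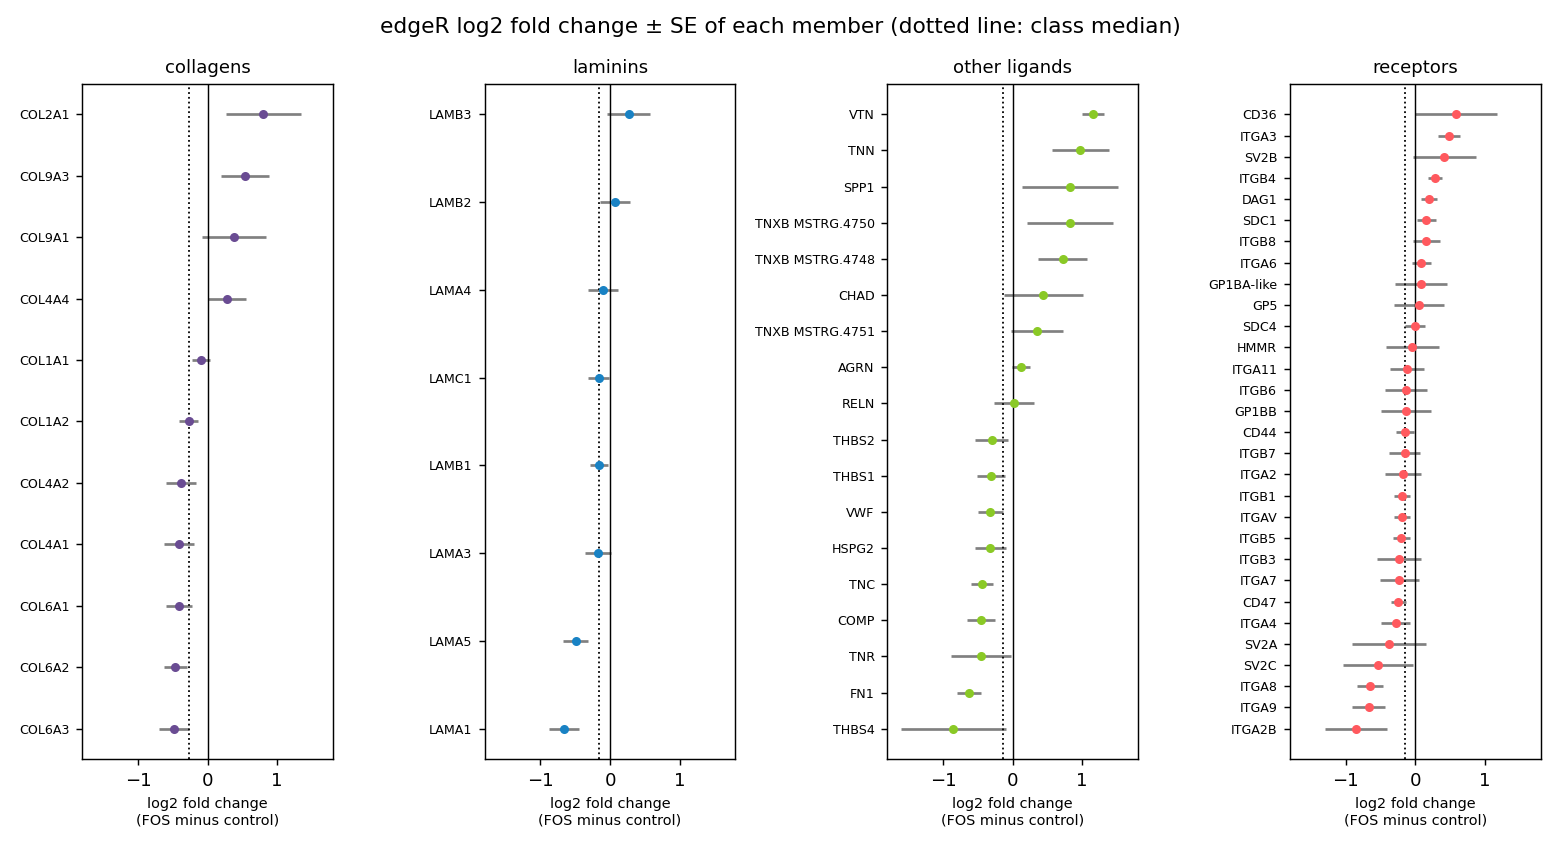
Log2 fold change of FOS minus control (x axis, edgeR, points) with its SE (bars) for each member (y axis), by class, with the class median as a dotted line. VTN stands at 1.15 with a short bar, and the medians of the collagens, laminins, other ligands and receptors lie at -0.27, -0.16, -0.14 and -0.14.

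The median log2 fold change over all members was -0.15, against 0.01 over all genes tested, and 41 of 67 (61.2%) were negative, against 48.9% of all genes. FOS 1 was the lowest of the 6 libraries for 35 of 67 members (52.2%), against 28.1% of all genes, and the highest for 12 (17.9%), against 27.2%. Without FOS 1, 39 of 67 log2 fold changes (58.2%) were negative, against 49.7% of all genes, where the whole set gave 61.2%. By library, the median of log2 CPM minus the control mean was -0.47 in FOS 1, -0.12 in FOS 2 and 0.02 in FOS 3, while the controls ranged from -0.01 to 0.03. Collagens gave -0.64, -0.30 and -0.02 in FOS 1 to 3, and laminins -0.45, -0.15 and 0.04. Other ligands gave -0.68, -0.08 and 0.11, and receptors -0.17, -0.12 and -0.01. The summed FPKM of the collagens, without TMM factors, was 910, 912 and 945 in the controls, against 543, 655 and 875 under FOS. On that scale the FOS libraries ran from well below the controls to close beneath them. Of the 41 members with a lower mean, 29 were lower with any 1 library left out, and of the 26 with a higher mean, 17 were higher. The matching shares over all genes were not computed. Without FOS 1 there were 3 members lower at an unadjusted p under 0.05 (4.48%, against 4.31% of all genes) and 8 higher (11.9%, against 5.52%), 3 of these 8 being rows of tenascin-X. Without FOS 2 there were 4 lower (5.97%, against 4.2%) and 5 higher (7.46%, against 4.68%). Without FOS 3 there were 14 lower (20.9%, against 5.04%) and 3 higher (4.48%, against 5.71%). Without control 1 there were 4 lower and 2 higher, without control 2 there were 6 and 3, and without control 3 there were 3 and 1. No share over all genes was computed for these counts without a control, so they cannot be set against one. With the replicate number as a block there were 10 lower (14.9%, against 4.16%) and 2 higher (2.99%, against 4.93%), VTN and ITGA3. DESeq2 with the block called 1 member, VTN, against 0.833% of all genes.

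Markers of other cell types were read in the same libraries. All 12 smooth muscle markers were tested and had a negative log2 fold change, where 48.9% of all genes did. Their median was -0.37, and -0.15 without FOS 1, and 0 had an unadjusted edgeR p under 0.05. Their summed level was 6476 to 9145 CPM in the controls, against 4619, 6810 and 7695 CPM under FOS. The 11 fibroblast markers found, of which COL1A1 is a member, summed to 4653 to 4894 CPM in control and to 3357, 4329 and 5122 CPM in FOS. Most of this sum was COL3A1, a collagen whose levels are given above, so it is no reading apart from the matrix genes. The 11 endothelial markers found summed to 678 to 750 CPM in control and to 420, 691 and 749 CPM in FOS. The 12 enterocyte markers summed to 16937 to 21605 CPM in control and to 25901, 19857 and 20000 CPM in FOS, highest in FOS 1. Median log2 fold changes were -0.15 for fibroblast, -0.18 for endothelial and 0.45 for enterocyte markers. Without FOS 1 they were 0.0, 0.11 and 0.51. No list had a defining marker at 0, and with edgeR or DESeq2 0 genes of these 4 lists passed. At an unadjusted p under 0.05 PDGFRA, DPT and FBLN1 of the fibroblast list were lower, as was FABP6 of the enterocyte list, and 5 enterocyte genes were higher, led by CDX2, ALPI and APOA4. Over all genes 4.27% were lower and 5.14% higher at that level. With the replicate block DESeq2 called ALPI and SI higher and FABP6 lower (DESeq2 adjusted p = 3.39e-05, 0.00908 and 0.000145). The part of these cell types in the lower matrix levels, and in the higher ITGA3 and ITGB4, was not tested. VTN stood at 60.2 CPM in FOS 1 and 57.7 CPM in FOS 3, and the part of cell types in its level was not tested either. Of 8 thrombocyte markers listed 6 were found, and 3 of the 5 tested are members, so the list is no reading apart from the members. The 6 found summed to 37.4 to 46.5 CPM in the controls, against 23.4 to 50.6 CPM under FOS, and 0 passed. The 6 glial markers summed to 317 to 357 CPM in the controls, against 434 to 458 CPM under FOS. Their mean log2 CPM was 3.27, 3.51 and 3.67 in the controls, against 3.14, 4.08 and 3.88 under FOS. By that mean FOS 1 was the lowest library, though its sum of 458 CPM was the highest. Of these markers DESeq2 called ERBB3 higher (log2 fold change 0.41, SE 0.11, DESeq2 adjusted p = 0.0471, and 0.36 with the block). Whether cells other than glia held these transcripts was not tested.

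**Figure D4:**
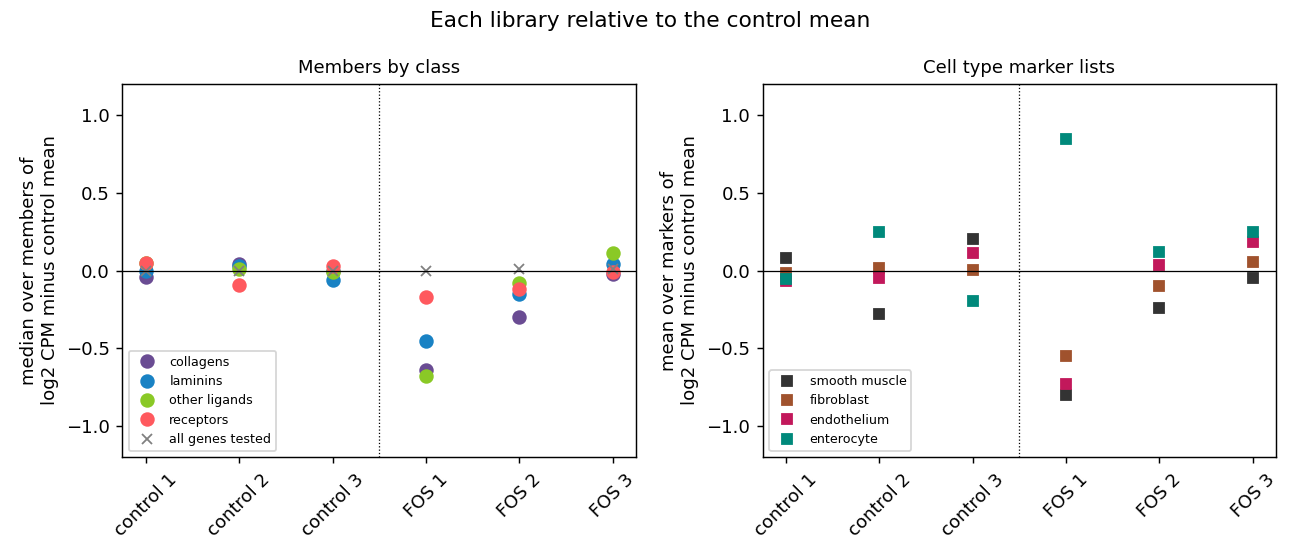
Each library (x axis) relative to the control mean on a log2 CPM scale (y axis), as the median over members of each class (left) and as the mean over the genes of each cell type marker list (right). In FOS 1 the other ligands lie at -0.68, the collagens at -0.64 and the laminins at -0.45. The smooth muscle, fibroblast and endothelial lists also lie lowest in FOS 1, while the enterocyte list is highest there. FOS 3 lies near the controls for all 4 classes.

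Genes that make, cross-link and cut the matrix were read beside the members. Of 23 tested genes for collagen modification and cross-linking, 0 passed with edgeR or DESeq2 (median log2 fold change -0.16, and -0.08 without FOS 1). At an unadjusted p under 0.05 there were 4 lower and 0 higher. Over all genes 4.27% were lower and 5.14% higher at that level. SERPINH1, the collagen chaperone, stood at 371, 316 and 502 CPM in the controls, against 197, 254 and 297 CPM under FOS, without overlap (log2 fold change -0.67, SE 0.22, unadjusted p = 0.0167). With the replicate block DESeq2 called it (DESeq2 adjusted p = 0.0371). LOXL2 and LOXL4, enzymes that cross-link collagen, had log2 fold changes of -0.59 (SE 0.21) and -1.19 (SE 0.39). Of 24 tested matrix proteases and inhibitors 0 passed with either tool, and 0 had an unadjusted p under 0.05. The median was -0.17, and -0.02 without FOS 1.

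Of 26 tested small proteoglycans and other matrix proteins 0 passed with either tool (median -0.11, and 0.08 without FOS 1). At an unadjusted p under 0.05 there were 6 lower and 0 higher, against 4.27% and 5.14% of all genes. FBLN5, a protein of elastic fibres, NID1, the nidogen that joins laminin to type IV collagen, and ASPN, a small proteoglycan, had log2 fold changes of -0.59, -0.45 and -0.37 (with SEs of 0.17, 0.15 and 0.13). Of 25 tested genes of the integrin adhesion machinery 0 passed with either tool (median -0.07). At an unadjusted p under 0.05 there were 3 higher and 2 lower, against 5.14% and 4.27% of all genes. BCAR1, an adaptor of focal adhesions, stood at 108, 123 and 142 CPM in the controls, against 226, 180 and 136 CPM under FOS, with overlap (log2 fold change 0.54, SE 0.20). ACTN4, an actin cross-linker, had 0.32 (SE 0.12), and TLN2, a talin, had -0.59 (SE 0.19).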

How the data were processed

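RNA came from TRIzol extraction, and a small RNA kit is named for the libraries, per the labels' protocols. Per the submitters' processing notes the tools were StringTie 1.3.1, HISAT2, Bowtie2, fastp 0.18.0 and DESeq2, with no order or role. Build, annotation and counter: not given in the sources used here. The authors deposited expected counts (estimated counts, 8.06% of values not whole) and FPKM for 17623 rows. The 12 value columns of 6 libraries outside the described samples were left out.

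Counts were rounded to whole numbers, and 13807 genes kept by filterByExpr, all 67 members among them, got TMM factors and entered a quasi-likelihood test in edgeR 4.0.16 (R 4.3.3), with Benjamini-Hochberg adjustment over all of them. Each SE was taken as the size of the log2 fold change over the square root of its F statistic. The steps were run on counts simulated from edgeR's trended dispersion with set fold changes. That setting holds no library that departs from its group, so it cannot decide between the edgeR and DESeq2 calls. Members without a symbol, 5 rows, were named through NCBI gene IDs in RefSeq (GRCg7b).

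Members, classes and lists were chosen with earlier results of these data known. Named by rule were 23 members: VTN, per class the 5 smallest p values at 1 CPM or more and the 2 highest FPKM, calls by edgeR or DESeq2, and up to 3 genes per related list. Other members were chosen after their values were seen. Values of paralogs may share reads. Counting error alone limits the values of scarce genes.

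Replicate numbers come from the titles. Deviations of same-numbered libraries from their group means correlated at 0.24, 0.388 and 0.198, all above the bar of 0.1 for pairs, and at 0.156, 0.0484 and 0.0752 without 61 genes that follow the W-linked transcripts. Alternatives were other scalings and filters, DESeq2 1.42.0, limma 3.58.1 (voom, and log2 of FPKM plus 1 or 0.1), each library left out, the block, and presence of W-linked transcripts (HINTW past 10 CPM) as a model term or as a condition for keeping a library. DESeq2 with the block, or with a library left out, was added after the data were examined.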

Additional observations from a re-analysis of the deposited data

How the results depend on the processing

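The edgeR count of 3 called genes was 149 with DESeq2, 115 with DESeq2 and the replicate block, 1 with limma-voom, and 0 to 4 with 1 library left out. With DESeq2 it was 69, 181 and 58 without control 1, 2 or 3 and 156, 139 and 248 without FOS 1, 2 or 3. The replicate block in edgeR left it at 3. The count of called members, 0 with edgeR on all libraries or with any 1 left out, was 1 with DESeq2, also with the block. With DESeq2 it was 1 without control 1 or control 3, 2 without control 2, FOS 1 or FOS 2, and 8 without FOS 3. The 8 lower and 4 higher members at an unadjusted p under 0.05 became 14 and 2 with limma on either FPKM scale, and ranged from 3 to 14 lower and from 1 to 8 higher with 1 library left out. No share over all genes was computed for the limma counts. TMM factors, not applied to FPKM, were 1.037, 1.001 and 1.037 in the controls and 0.9476, 0.9789 and 1.002 in FOS. Without them FOS values stand lower against control values than in CPM. The median over all members was -0.15 in edgeR, and -0.17 and -0.21 with limma on log2 of FPKM plus 1 and plus 0.1. VTN had a positive log2 fold change in all 24 alternatives. It passed with DESeq2 (1.15), with DESeq2 and the block (1.17), and with DESeq2 and a library left out (1.24, 1.23 and 1.01 without control 1, 2 or 3, and 1.14, 1.16 and 1.17 without FOS 1, 2 or 3). Its adjusted p ranged from 2.28e-07 to 0.827. Among members the block changed no call. The median of the other ligands ranged from -0.30 to 0.16 with 1 library left out, and from -0.31 to 0.16 with DESeq2. LAMA3 was at 0.01 in the 4 libraries with W-linked transcripts and at -0.34 to 0.00 with 1 library left out. SDC4 was at -0.02 with upper-quartile factors, at -0.08 on both FPKM scales, and at -0.08 to 0.13 with 1 library left out. With DESeq2 SDC4 was at -0.07 to 0.13, among them -0.03 without control 3 and -0.05 without FOS 3. The causes were not tested. At 14.4 to 18.8 counts per CPM, members near 1 CPM rest on few counts.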
